A study of Mus musculus with 6 samples.

Results

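Cells detect stray nucleic acid with a small set of receptors and adaptors, and the mRNA levels of 10 such genes were measured in CT26, a mouse colon carcinoma cell line. The genes were chosen by name: Ddx58 (RIG-I), Ifih1 (MDA5), Dhx58 (LGP2), Tlr3, Cgas, Zbp1, Mavs, Tmem173 (STING), Tbk1 and Trex1. The choice was made with earlier results of these data known. They are 10 of the 53801 genes in each deposited table, all 10 were found there, and all 10 passed the filter on low counts in every comparison. The set is broader than its usual label of cytosolic sensors, since Tlr3 is an endosomal receptor, Mavs, Tmem173 and Tbk1 act after the receptors, and Trex1 is a nuclease.

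The study set 2 resistant lines against a parental one, and each of the 3 groups had 2 libraries, replicates A and B. The parental line was a bulk population of barcoded CT26 cells (BALBc background) recovered from tumors and then cultured. Lines B04 and B64 were each grown from 1 cell of an engrafted tumor, and each carried a barcode enriched under both anti-PD1 and anti-CTLA4, antibodies that block immune checkpoints. The labels call both of them anPD1-resistant. The labels give no treatment for any group and RPMI as the medium for all of them, and each resistant line is 1 clone. The titles speak of tumors, but according to the methods RNA was taken from lines cultured in duplicates. Nothing says that the duplicates were separate clones or animals, so the p-values below measure only the spread between these libraries, which may be technical.

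RIG-I and MDA5 bind double-stranded RNA in the cytosol and signal through MAVS, an adaptor on mitochondria, while LGP2 binds such RNA without the signaling domains of the other two. cGAS binds cytosolic DNA and makes a cyclic dinucleotide that activates STING, and both routes reach the kinase TBK1, which phosphorylates interferon regulatory factors (IRFs). Several of these receptors are themselves interferon-stimulated genes, and in tumor cells the pathway is known as a source of type I interferon.

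Promoter sequence is shown for the 2 RNA receptors with signaling domains and for their shared adaptor, because their mRNA levels differed between B64 and B04 in opposite directions. The sequences are from RefSeq on GRCm38.p6, run from 250 bases before to 50 bases after the start site, and are written 5′ to 3′ in the direction of the gene. Capitals mark the letters GAAANNGAAA, the core that many IRF-bound elements share, searched on both strands (TTTCNNTTTC on the other). The windows are chr4:40239776-40240075 (minus strand) for Ddx58, chr2:62646206-62646505 (minus strand) for Ifih1 and chr2:131233813-131234112 (plus strand) for Mavs.
Ddx58: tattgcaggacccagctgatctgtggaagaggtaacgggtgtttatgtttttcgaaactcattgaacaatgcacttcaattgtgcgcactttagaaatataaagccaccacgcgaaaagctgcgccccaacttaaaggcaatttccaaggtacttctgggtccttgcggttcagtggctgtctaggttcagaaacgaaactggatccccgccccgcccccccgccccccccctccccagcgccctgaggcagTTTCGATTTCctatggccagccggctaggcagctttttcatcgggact
Ifih1: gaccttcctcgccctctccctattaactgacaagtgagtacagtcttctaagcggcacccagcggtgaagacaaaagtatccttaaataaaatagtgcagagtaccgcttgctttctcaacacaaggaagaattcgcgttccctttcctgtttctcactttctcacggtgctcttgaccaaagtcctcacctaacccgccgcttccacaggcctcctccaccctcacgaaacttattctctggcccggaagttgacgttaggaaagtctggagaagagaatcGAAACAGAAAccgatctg
Mavs: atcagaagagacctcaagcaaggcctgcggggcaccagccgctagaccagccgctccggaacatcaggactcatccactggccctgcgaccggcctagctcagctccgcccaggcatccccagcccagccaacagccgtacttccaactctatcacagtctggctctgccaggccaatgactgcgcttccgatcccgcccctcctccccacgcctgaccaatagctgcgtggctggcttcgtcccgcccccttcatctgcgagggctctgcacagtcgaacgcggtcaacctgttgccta
Ddx58 held 1 match, beginning at base 253 of the 300, and Ifih1 held 1, beginning at base 283. Both matches lie just after the annotated start. No match was found in the window of Mavs, or in those of Tlr3, Cgas, Trex1 and Tbk1. Across the RefSeq table, 1131 of 32851 promoters (3.44%) held the same letters. A second motif, TTCNNNGAA, which reads the same on both strands and is the form many STAT-bound elements take, was found in 2726 promoters (8.3%) and in none of these 7 genes' windows. These matches describe letters in a window and do not show binding. As the printed windows were picked by expression in these same libraries, the contrast between them is a description only. Promoters of 7 of the 10 genes were taken from the table. Dhx58 and Zbp1 had no entry in it, and the promoter of Tmem173 is not shown.

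Library totals ranged from 19409204 to 23472012 expected counts. Replicates were not copies of each other: the chi-square per degree of freedom was 5.29 to 7.16 within lines and 26.33 to 41.47 between lines. Fragment length was read from the tables by subtracting a gene's effective length from its length. It came to 277.2 and 276.5 bases for the parental pair, to 271.7 for B04 A but 225.1 for B04 B, and to 220.8 and 246.1 for B64. At a boundary of 250 bases, both parental libraries were long and both B64 libraries short, so for B64 against the parental line fragment length and line can be separated only through the B04 pair. The leukocyte markers summed to between 10.48 and 12.17 TPM (a length-scaled transcript level) in the 4 parental and B04 libraries, and B64 reached 40.32 and 36.67. Of those 10 markers, 8 were under 0.1 TPM in every library, Ptprc, Csf1r, Adgre1 and Itgam among them, and nearly all of the sum was Cd68, a lysosomal protein gene, at 10.08 to 11.99 TPM outside B64 and at 39.62 and 36.06 within it. All 5 endothelial markers were under 0.1 TPM in each library, and the erythroid markers summed to 0.09 to 2.54 TPM. The 5 fibroblast markers summed to 328.98 to 361.89 TPM, nearly all of it Col1a2, a collagen gene, at 316.39 to 358.62. Col1a1, its partner chain, was at 9.29 to 10.54 TPM in the parental and B04 lines and at 1.48 and 2.0 in B64, and Lum was at 0 in all 6. Of 7 epithelial genes, Epcam, Cdh1 and Vil1 were under 0.1 TPM in every library, Krt19 was at most 0.19 and Krt8 was at 0.11 to 0.51. Cdx2, an intestinal transcription factor, was at 0.87 and 0.56 TPM in the parental libraries and at 0 in B04 and B64, while Krt18 was at 12.31 to 22.44. The part that any of these marker levels has in the results below was not tested.

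In B64, 6 of the 10 genes were higher than in the parental line and none was lower. These were Dhx58, Zbp1, Trex1, Ifih1, Tlr3 and Ddx58, with rises of 1.16, 0.94, 0.81, 0.69, 0.63 and 0.59 on the log2 scale. Cgas, Mavs, Tbk1 and Tmem173 did not pass the test. Among all 13218 genes tested in this comparison, 8.87% were called higher and 7.45% lower. The median log2 fold change of the 10 genes was 0.61, beside 0.0 over all genes tested. Since the 10 genes were chosen with earlier results of these data known, these shares and medians are a description and do not test the set. Calls were made with DESeq2 at a Benjamini-Hochberg adjusted p under 0.05, and the adjusted p-values of single genes below are from that fit unless edgeR or limma is named.

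B04 differed from the parental line in fewer of them. Mavs was called higher and Ifih1 lower, and the other 8 were not called. In this comparison 11.2% of the 13218 genes tested were called higher and 12.9% lower, so 1 of 10 in each direction is near the background. The median over the 10 genes was 0.07, beside 0.0 over all genes. Comparisons of the 2 resistant lines with the parental line share both parental libraries and are given side by side only. Set directly against B04, B64 was higher in Ifih1, Dhx58, Ddx58, Zbp1, Tlr3 and Tmem173 and lower in Mavs, where 13.1% of 12855 genes tested were called higher and 11.1% lower, and the median was 0.59 beside 0.0 over all genes. In bulk RNA, fewer cells expressing a gene and less RNA per cell cannot be told apart.

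**Figure D1:**
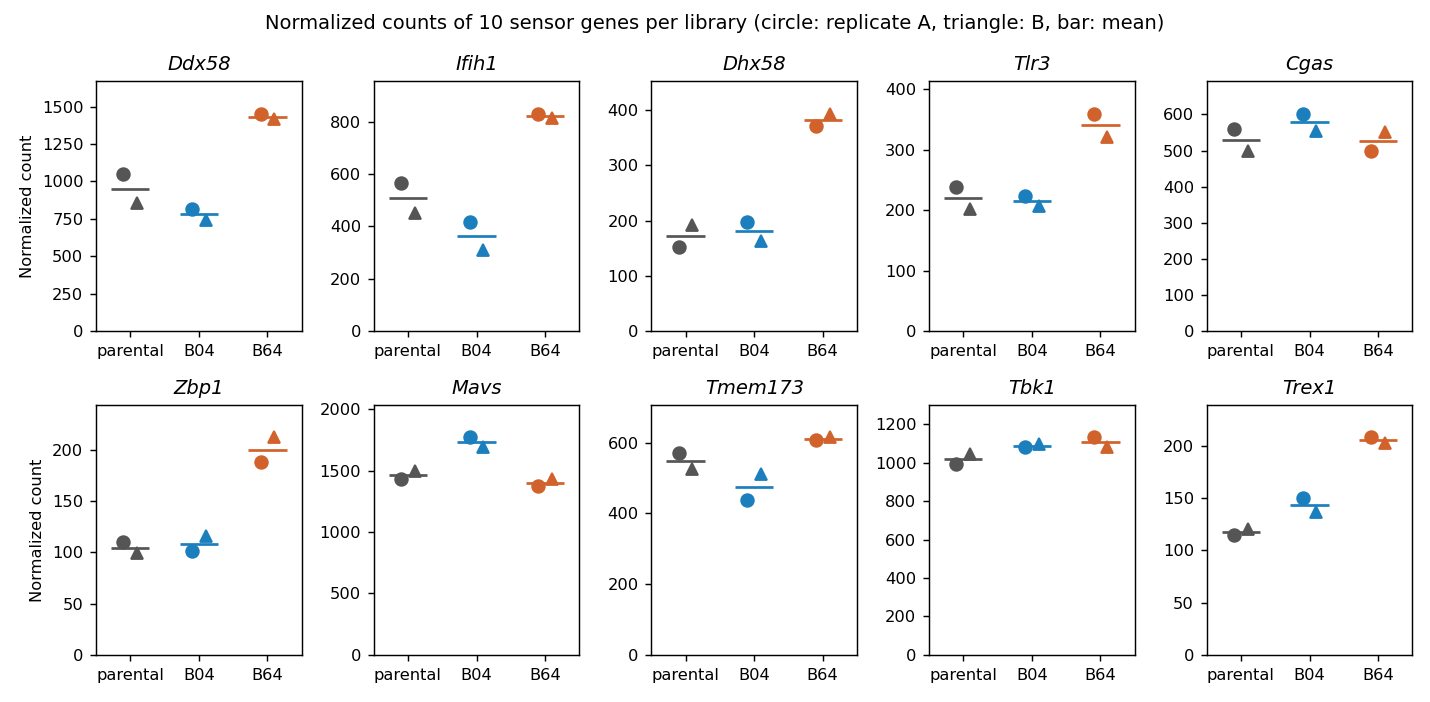
Normalized count (vertical axis, from 0, counts divided by DESeq2 size factors) of each of the 10 genes in each library, by line, with circles for replicate A, triangles for replicate B and a bar at the mean of the 2. Both B64 points stand above all 4 other points for Ddx58, Ifih1, Dhx58, Tlr3, Zbp1, Trex1 and Tmem173, and both B04 points stand above the others for Mavs.

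Ddx58 (ENSMUSG00000040296, chr4:40203773-40239828, minus strand) encodes RIG-I, which recognizes short double-stranded RNA with a 5′ triphosphate. It had 1048 and 856 normalized counts in the parental line, 814 and 746 in B04, and 1453 and 1415 in B64. Both B64 libraries were the highest of the 6, both B04 libraries the lowest, and no groups overlapped. B64 exceeded the parental line by 0.59 (SE 0.11, adjusted p = 6e-06), a fold of 1.51, and exceeded B04 by 0.88 (SE 0.12, adjusted p = 9.84e-13), a fold of 1.84. B04 lay at -0.29 (SE 0.12) from the parental line, with an adjusted p of 0.0557 in DESeq2 and 0.0387 in edgeR. With the fragment-length class as a block, the value for B64 against the parental line was 0.72 with an adjusted p of 0.0595. Without parental B, the value for B04 was -0.43 with an adjusted p of 0.015.

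Ifih1 (ENSMUSG00000026896, chr2:62595798-62646255, minus strand) encodes MDA5, the receptor for long double-stranded RNA. It had normalized counts of 567 and 450 in the parental line, 416 and 309 in B04, and 830 and 813 in B64. The order of the lines was the same as for Ddx58, again with no overlap, but B04 A and parental B were close. B64 was 0.69 (SE 0.16, adjusted p = 0.0002) above the parental line and 1.18 (SE 0.16, adjusted p = 7.99e-12) above B04, the largest fold of any of the 10 genes between these 2 lines at 2.26. In B04 it fell by 0.48 (SE 0.16, adjusted p = 0.0154). That fall was not called without parental A (-0.31, adjusted p = 0.39), without B04 B (-0.29, adjusted p = 0.399), with the fragment-length class as a block (-0.29, adjusted p = 0.464), with effective lengths as an offset (-0.44, adjusted p = 0.089) or with limma on log2(TPM + 1) (-0.31, adjusted p = 0.238). The rise in B64 against the parental line was not called without parental B (0.53, adjusted p = 0.0611) or with limma (0.65, adjusted p = 0.0555).

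Dhx58 (ENSMUSG00000017830, chr11:100694884-100704271, minus strand) encodes LGP2, which modulates signaling by the other two receptors. Parental counts were 152 and 191, B04 counts were 198 and 163, and B64 counts were 370 and 393. The parental and B04 libraries overlapped, and both B64 libraries were far above them. Its rise in B64 was the largest of the 10 against the parental line, at 1.16 (SE 0.20, adjusted p = 4.99e-07), a fold of 2.23, and against B04 it was 1.08 (SE 0.20, adjusted p = 1.78e-06). B04 was at 0.08 (95% interval -0.34 to 0.49) from the parental line. Both rises were called under every alternative run, including the fragment-length class block and each left-out library. An antisense gene, Dhx58os, overlaps it and had normalized counts of 2 to 15. Whether counting used strand was not given in the sources used here, so reads of the pair cannot be told apart.

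Tlr3 (ENSMUSG00000031639, chr8:45395665-45411080, minus strand) detects double-stranded RNA from inside endosomes and signals through TICAM1. Its counts were 238 and 203 in the parental line, 224 and 208 in B04, and 360 and 322 in B64. B64 stood apart, and the other lines overlapped. The rise in B64 was 0.63 (SE 0.19, adjusted p = 0.00924) over the parental line and 0.66 (SE 0.19, adjusted p = 0.00396) over B04. The first was not called without any 1 of the parental or B64 libraries (0.51 to 0.75, adjusted p = 0.0544 to 0.276), nor with the fragment-length block (0.74, adjusted p = 0.639), the effective-length offset (0.32, adjusted p = 0.683) or limma on log2(TPM + 1) (0.39, adjusted p = 0.522). The second was not called without B04 A, B04 B or B64 A (0.58 to 0.72, adjusted p = 0.0509 to 0.164), nor under those same 3 settings (0.72, 0.91 and 0.73, adjusted p = 0.0703, 0.0558 and 0.204). Its TPM was uneven in the parental line, 8.38 in A and 3.32 in B, with effective lengths of 1468.0 bases in A and 3025.81 in B.

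Zbp1 (ENSMUSG00000027514, chr2:173206612-173218923, minus strand) encodes a receptor for Z-form nucleic acid that can trigger necroptosis and apoptosis. Its mean count was the lowest of the set in each line, with 110 and 99 in the parental line, 101 and 116 in B04, and 188 and 212 in B64. Parental and B04 libraries overlapped and both B64 libraries were higher. B64 was 0.94 (SE 0.25, adjusted p = 0.00254) above the parental line and 0.88 (SE 0.25, adjusted p = 0.00336) above B04. The first call was lost without any 1 of the parental or B64 libraries (0.85 to 1.03, adjusted p = 0.0527 to 0.163), with the fragment-length block (0.74, adjusted p = 0.936) and with the effective-length offset (0.75, adjusted p = 0.0592). The second was lost without B04 A, B64 A or B64 B (0.79 to 0.97, adjusted p = 0.0514 to 0.15) and with the fragment-length block (0.79, adjusted p = 0.165).

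Cgas (ENSMUSG00000032344, chr9:78430526-78443237, minus strand), the DNA receptor, did not pass any of the 3 tests. Its counts were 559 and 500 in the parental line, 602 and 555 in B04, and 500 and 550 in B64. The 6 libraries spanned a narrow range with parental and B64 libraries interleaved. B64 was at -0.01 from the parental line, with a 95% interval of -0.28 to 0.26, and B04 was at 0.13, with an interval of -0.14 to 0.40.

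**Figure D2:**
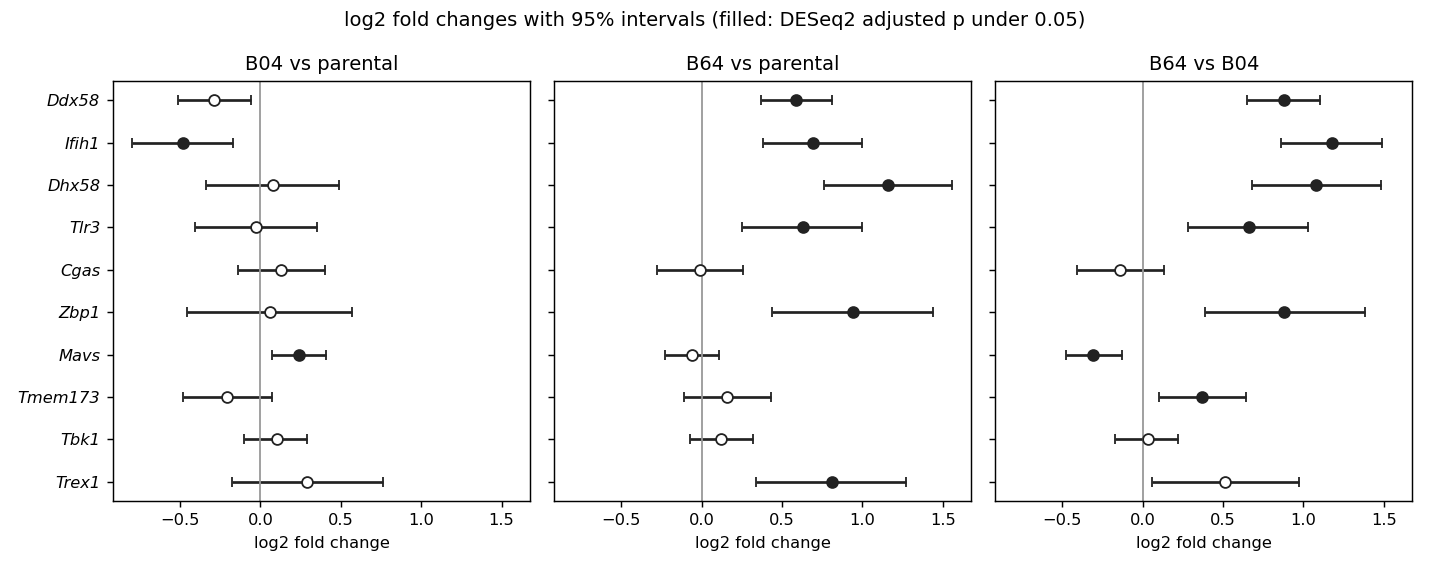
Log2 fold change (horizontal axis) of each of the 10 genes in the 3 comparisons, first line over second, with 95% intervals and filled points for a DESeq2 adjusted p under 0.05. The middle panel, B64 against the parental line, has 6 filled points between 0.59 and 1.16, and the first panel, B04 against the parental line, has only Ifih1 at -0.48 and Mavs at 0.24.

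Mavs (ENSMUSG00000037523, chr2:131234063-131248025, plus strand), the adaptor of RIG-I and MDA5, was the 1 gene of the set called higher in B04. It was counted at 1430 and 1495 in the parental line, 1771 and 1694 in B04, and 1372 and 1433 in B64. Both B04 libraries were the highest of the 6, and the parental and B64 libraries overlapped. B04 exceeded the parental line by 0.24 (SE 0.09, adjusted p = 0.0236), a fold of 1.18. That call was lost without any 1 of the 6 libraries (0.21 to 0.28, adjusted p = 0.0622 to 0.283), with the fragment-length block (0.28, adjusted p = 0.137) and with the effective-length offset (0.24, adjusted p = 0.0692), while edgeR gave 0.00887. With the replicate letter as a block it was 0.24 with an adjusted p of 0.0579. B64 was -0.31 (SE 0.09, adjusted p = 0.00331) from B04, a call lost without B04 A or B64 A (both -0.27, adjusted p = 0.133 and 0.129) and with the fragment-length block (-0.27, adjusted p = 0.148), and -0.06 (95% interval -0.23 to 0.11) from the parental line.

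Tmem173 (ENSMUSG00000024349, chromosome 18) encodes STING, the adaptor that binds the product of cGAS. Counts were 570 and 525 in the parental line, 439 and 511 in B04, and 608 and 615 in B64. Its lines did not overlap, although parental B and B04 B were close. B64 was 0.37 (SE 0.14, adjusted p = 0.0359) above B04, a call that ended without any 1 of the 6 libraries (0.26 to 0.48, adjusted p = 0.0547 to 0.438), with the replicate letter as a block (0.37, adjusted p = 0.0879), with no filter on low counts (adjusted p = 0.0572) and with the fragment-length block (0.26, adjusted p = 0.487). The call also ended with only these 2 groups in the fit (0.36, adjusted p = 0.0567) and with the effective-length offset (0.36, adjusted p = 0.0809). Neither limma fit called it (0.31 and 0.33, adjusted p = 0.0949 and 0.0931). Against the parental line, B04 was at -0.21 (95% interval -0.48 to 0.07) and B64 at 0.16 (-0.11 to 0.43), neither of them called.

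Tbk1 (ENSMUSG00000020115, chr10:121546455-121586787, minus strand), the kinase on which both routes converge, had counts of 991 and 1046 in the parental line, 1081 and 1095 in B04, and 1132 and 1083 in B64. It was not called in any comparison, and its log2 fold changes were 0.10, 0.12 and 0.03 for B04 against the parental line, B64 against the parental line and B64 against B04. The 95% interval for B64 against the parental line was -0.07 to 0.32.

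Trex1 (ENSMUSG00000049734, chr9:109057933-109059734, minus strand) encodes the main exonuclease that removes cytosolic DNA and so limits cGAS. It was counted at 115 and 120 in the parental line, 150 and 137 in B04, and 208 and 203 in B64. The lines did not overlap, with B04 between the other two. B64 was 0.81 (SE 0.24, adjusted p = 0.00641) above the parental line. That call was lost without any 1 of the parental or B64 libraries (0.78 to 0.83, adjusted p = 0.083 to 0.162) and with the fragment-length block (0.94, adjusted p = 0.608). Against B04 it was 0.51 (SE 0.23), with an adjusted p of 0.0966 in DESeq2 and 0.0145 in edgeR. Trex1 lies inside the span of Atrip on the same strand and its expected counts are not whole numbers, so reads were divided between genes and the value is uncertain to that extent. Atrip itself had normalized counts of 232 to 305 and was not called in any comparison.

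Ratios within a library do not depend on its size factor and were used to set receptors against their adaptors. Expected counts of Ddx58 plus Ifih1 over those of Mavs were 1.13 and 0.873 in the parental line, 0.695 and 0.623 in B04, and 1.66 and 1.55 in B64. The ratio thus was lowest in B04 and highest in B64. The parental line lay between them with no overlap. On the DNA side, Cgas over Tmem173 was 0.968 ± 0.020 in the parental line, 1.23 ± 0.20 in B04 and 0.858 ± 0.051 in B64 (SD, n = 2). Trex1 over Cgas, the nuclease against the receptor, was 0.206 and 0.239 in the parental line, 0.250 and 0.249 in B04, and 0.417 and 0.369 in B64. Both B64 libraries were above all others in this ratio, in which Trex1 was called in B64 and Cgas was not. Expected counts are not scaled by gene length, so the level of a ratio does not show which gene was more abundant. Only its differences between lines are read here. In TPM, Trex1 and Cgas overlapped in the parental line (means 7.47 and 7.95), and in B64 they were at 13.0 and 8.03. The ratios were not tested and are given as a description.

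**Figure D3:**
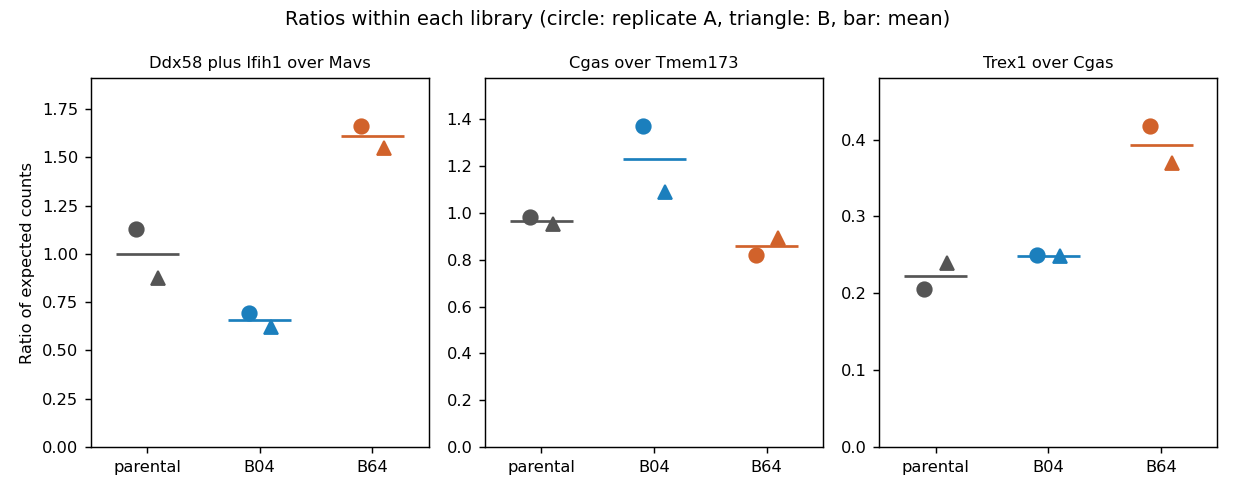
Ratio of expected counts within each library (vertical axes, from 0) by line, for Ddx58 plus Ifih1 over Mavs, Cgas over Tmem173, and Trex1 over Cgas, with circles for replicate A, triangles for replicate B and bars at the means. The first ratio is 1.0 in the parental line, 0.659 in B04 and 1.61 in B64 on average. Counts are not scaled by gene length.

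Levels of different genes were compared per length, in TPM (mean ± SD, n = 2). Mavs led in every line, at 27.2 ± 0.18 in the parental line, 34.0 ± 0.91 in B04 and 26.8 ± 0.52 in B64, followed by Tbk1 at 22.1 ± 0.33, 24.6 ± 2.6 and 23.2 ± 2.8. Mavs and Tbk1 thus had higher TPM than any receptor in the parental and B04 lines. In B64, Ddx58 reached 21.7 ± 0.73 and its libraries overlapped those of Tbk1, whereas in the parental line it was at 13.8 ± 2.4 and overlapped Tmem173 at 13.7 ± 1.2. In the parental line, where Tlr3 and Ifih1 overlapped, Dhx58 had the lowest mean of the 10 at 4.72 ± 0.76. Its libraries there overlapped those of Tlr3. In B64 Dhx58 was at 11.3 ± 0.38, above Ifih1 at 10.5 ± 0.11. The lowest in B64 were Cgas at 8.03 ± 0.77 and Tlr3 at 7.40 ± 1.6, which overlapped. In B04 the order below Tbk1 was Tmem173 and Ddx58 (overlapping), Trex1, Cgas, Zbp1, Dhx58 and Ifih1 (overlapping) and Tlr3.

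The genes whose profiles over the 6 libraries were most like those of the members were searched among the 9868 genes averaging 100 or more normalized counts, by Pearson's r of log2(normalized count + 1). Ddx58 was closest to Oasl2, Dip2c and Atg3 (r = 0.997, 0.997 and 0.996), Dhx58 to Ctsd (0.998), Ifih1 to Tmem135 (0.998) and Mavs to Rfc4 (0.998). Since the libraries fall into 3 pairs, such values describe the order of the lines and carry no test.

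A wider list of 101 genes of the same pathway was drawn up by role, again with earlier results of these data known. Of these, 77 were tested. Their calls are from the DESeq2 fit above, and how single calls on this list depend on the alternatives was not examined. B64 was higher than the parental line in 18 and lower in 6, where 8.87% and 7.45% of all genes tested were called. B04 was higher in 6 and lower in 20, beside 11.2% and 12.9% of all genes, and B64 against B04 was higher in 24 and lower in 4, beside 13.1% and 11.1%. The 6 lower genes in B64 are near the background share, and the 6 higher genes in B04 are not above it. The medians over the tested genes were 0.05, -0.11 and 0.11, beside 0.0 over all genes. Of the 9 other double-stranded RNA sensors, 6 were called higher in B64 (8.87% of all genes) and none lower. In B04, 5 of the 9 were called lower (12.9% of all genes) and none higher. The 9 include genes of the 2′-5′-oligoadenylate synthetase family. Oasl1 had normalized counts of 2619 and 2594 in the parental line, 1900 and 1909 in B04, and 3777 and 3902 in B64. It fell by 0.45 in B04 (SE 0.07, adjusted p = 4.42e-09) and rose by 0.56 in B64 (SE 0.07, adjusted p = 4.82e-14). Oas1a fell by 0.44 and rose by 0.73, and Oasl2 fell by 0.45 and rose by 0.89. Members of the Oas family resemble each other in sequence, so reads could be divided among them and single values are less certain.

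Among 12 regulators of the RNA receptors, 10 were tested, with 6 lower in B04 and, in B64, 1 higher and 4 lower. Of all genes, 12.9% were called lower in B04, and 8.87% were called higher and 7.45% lower in B64, so the 1 higher gene is near the background. The one that rose in B64 was Trim25, a ubiquitin ligase that activates RIG-I, by 0.52 (SE 0.08, adjusted p = 9.81e-09), and it fell by 0.32 in B04. Zc3hav1, an antiviral zinc finger protein, fell by 0.47 in B04 and by 0.22 in B64, and Tomm70a, a mitochondrial import receptor that binds MAVS, fell by 0.35 and 0.20. The 15 regulators of the DNA branch held 14 tested genes, with 5 higher and 1 lower in B64 (8.87% and 7.45% of all genes) and 3 lower in B04 (12.9%). Nlrc3, which restrains STING, rose by 1.17 in B64 (SE 0.15, adjusted p = 3.17e-13). The DNA receptors Aim2 and Ifi204 rose by 0.85 and 0.41 in B64 and fell by 0.53 and 0.57 in B04, and Ifi204 belongs to a family of near-identical genes whose reads may be shared.

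**Figure D4:**
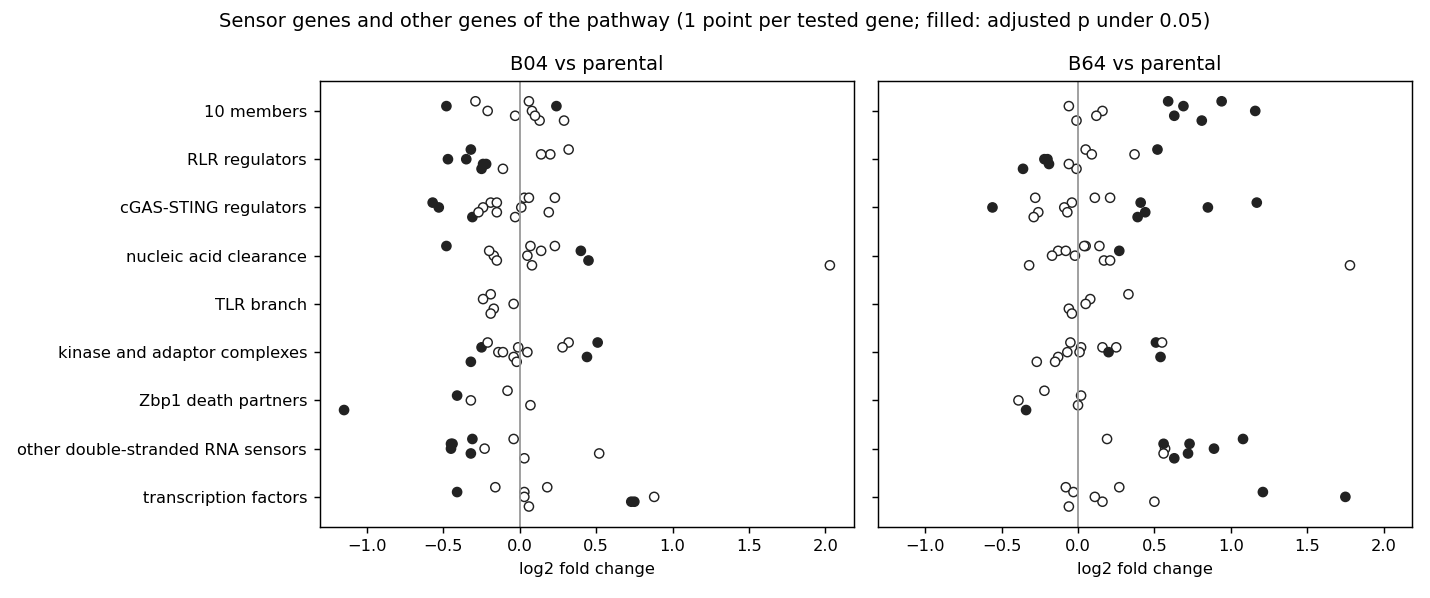
Log2 fold change (horizontal axis) of the 10 genes and of every tested gene on each list of other pathway genes, 1 point per gene and filled where the DESeq2 adjusted p was under 0.05, for B04 (first panel) and B64 (second panel) against the parental line. The other double-stranded RNA sensors have 6 filled points above 0 in B64 and 5 below 0 in B04, and the TLR branch has none in either.

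Of 13 genes that clear or edit nucleic acid, 12 were tested, and 2 were higher and 1 lower in B04 and 1 higher in B64. These counts are near the shares of all genes, which were 11.2% higher and 12.9% lower in B04 and 8.87% higher in B64. Adar, which edits double-stranded RNA, fell by 0.48 in B04, and Samhd1, which hydrolyzes nucleotides, and Rnaseh2b, a subunit of RNase H2, rose by 0.40 and 0.45 there. Of 10 genes of the TLR branch, 5 were tested. Tlr7, Tlr8, Tlr9, Tlr13 and Unc93b1 were not tested and had normalized counts of at most 6 in any library. None of the 5 tested genes was called in either line against the parental line, Ticam1 being at 0.33 in B64 with an adjusted p of 0.263. In B64 against B04, 2 of the 5 were called higher (13.1% of all genes). They were Ticam1 (0.52, adjusted p = 0.0308) and Myd88 (0.32, adjusted p = 0.0421). In TPM, Myd88 overlapped between B04 (20.86 and 42.57) and B64 (53.42 and 42.48). Of 13 tested genes of the kinase and adaptor complexes, 3 were higher in B64 (8.87% of all genes), and in B04 2 were higher and 2 lower, near the 11.2% and 12.9% of all genes. Ikbkg, which encodes NEMO, rose by 0.44 in B04 and 0.54 in B64. Chuk, an IκB kinase subunit, fell by 0.25 in B04, and Tax1bp1, an autophagy receptor, rose by 0.20 in B64. Of 6 partners of Zbp1 in cell death, 5 were tested, with 2 lower in B04 (12.9% of all genes) and 1 in B64 (7.45%). The untested one was Ripk3, with a normalized count of 2 in B04 A and 0 in every other library. Cflar, an inhibitor of caspase-8, fell by 1.15 in B04 (SE 0.08, adjusted p = 1.76e-49) and by 0.34 in B64. Mlkl, the executor of necroptosis, fell by 0.41 in B04 and was at 0.02 in B64, where it was not called.

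Of 9 transcription factors and inhibitors downstream, 2 were higher in B64 (8.87% of all genes), while in B04 2 were higher (11.2%) and 1 lower, the last near the 12.9% of all genes. Irf7, a factor that TBK1 activates, had counts of 1194 and 1218 in the parental line, 959 and 853 in B04, and 2893 and 2696 in B64. It rose by 1.21 in B64 (SE 0.09, adjusted p = 1.89e-38) and fell by 0.41 in B04. Irf1 and Nfkbia, the inhibitor of NF-κB, rose by 0.73 and 0.75 in B04 and were not called in B64, at 0.16 and 0.50. The interferon ligand genes on the list were not detectable at this depth. Of 13 type I, II and III interferon genes listed, 12 had an expected count of 0 in all libraries. The other was Ifnb1, with a normalized count of 1 in both B64 libraries and 0 in the parental and B04 libraries. The highest count of any was 1, under a floor of 3 counts per library that covers counting error only.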

How the data were processed

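RNA-seq was performed on 6 libraries of CT26 lines, 2 per group, grouped by their titles. Per the study's methods, the authors aligned paired reads to mm10 with STAR and quantified genes with RSEM. The deposited tables hold the authors' expected counts, in which reads matching several genes are divided among them and which need not be whole. They also hold the authors' TPM, scaled in RSEM by library total and effective length, and the deposited gene and effective lengths (other values, in bases). The annotation release and the strand setting were not given in the sources used here. Of 53801 gene identifiers, 53706 (99.8%) matched a symbol in GENCODE release 21 for mouse, built on GRCm38, the assembly of mm10. Gene coordinates are from that release and count from 1.

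DESeq2 (version 1.42.0, in R 4.3.3) was fitted to rounded expected counts, following the study's methods, with all 6 libraries, the line as the only term, a Wald test and independent filtering. Normalized counts are expected counts divided by DESeq2 size factors. Intervals of 95% are from the normal approximation on the log2 scale. Alternatives were edgeR's quasi-likelihood test (version 4.0.16), TMM factors, a minimum mean of 10 normalized counts, no filter, only the 2 groups compared, a block for replicate letter or for fragment-length class, effective-length offsets, limma (version 3.58.1) on log2(TPM + 1) and log2(TPM + 0.1) for genes with a mean TPM of at least 1, an adjusted p under 0.01, and leaving out each library. Fits on libraries of 1 fragment class were chosen after seeing the data. Where a left-out library leaves 1 in a line, that library is assumed to vary like the others. DESeq2, edgeR and limma were also run on simulated counts with known changes in B64. The simulation held no effect of fragment length, so it says nothing about one here.

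The 10 genes and the pathway lists were chosen with earlier results of these data known. All 10 are named, and on each pathway list at most 3 genes called in at least 1 comparison and averaging 10 or more normalized counts, by smallest adjusted p. Untested genes are named only for their low counts.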

Additional observations from a re-analysis of the deposited data

Results flagged for a closer look

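The changes of B64 and B04 from the parental line differed for 7 of the 10 genes, by the direct DESeq2 test of B64 against B04. The difference (B64 minus B04, log2) was 1.18 for Ifih1, 1.08 for Dhx58, 0.88 for Ddx58, 0.88 for Zbp1, 0.66 for Tlr3, 0.37 for Tmem173 and -0.31 for Mavs. For Ifih1 the lines moved in opposite directions from the parental line, both past the threshold. Under some alternatives the differences of Tmem173, Tlr3, Zbp1 and Mavs were not called, nor was the fall of Ifih1 in B04. For Ddx58, Dhx58, Tlr3 and Zbp1 the change from the parental line was called in B64 and not in B04, for Mavs it was called in B04 and not in B64, and for Tmem173 in neither. Groups of 2 libraries are too small to test for single libraries that stand apart.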

How the results depend on the processing

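The rises of Dhx58 in B64 against both other lines, and of Ddx58 and Ifih1 in B64 against B04, were called under every alternative run. The count of genes higher in B64 than in the parental line was 6 and became 2 (Dhx58 and Ifih1) with the fragment-length class block, where the median of the 10 rose from 0.61 to 0.73, and was 2 to 6 when single libraries were left out. Against B04, the 6 higher genes became 3 with that block and with short-fragment libraries only, and were 3 to 5 with single libraries left out. The 1 lower gene became 0 with that block and with short-fragment libraries only, and was 0 to 1 with single libraries left out. For B04 against the parental line, the 1 higher gene became 0 with the replicate block, the fragment-length block, the effective-length offset, long-fragment libraries only, the threshold of 0.01 and without any single library. The 1 lower gene became 2 with edgeR and with the mean filter of 10 (Ddx58 added), 0 with the fragment-length block, the offset, both limma fits, long-fragment libraries only and the threshold of 0.01, and was 0 to 2 with single libraries left out.

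Signs turned only for values that were never called. Against the parental line in B04, Tlr3 was 0.02 with the fragment-length block and 0.03 in long-fragment libraries, and -0.14 to 0.09 with single libraries left out. Zbp1 was -0.04 with the block, -0.10 with the offset, -0.02 with both limma fits, -0.04 in long-fragment libraries and -0.05 to 0.15 with single libraries left out, and Dhx58 ranged from -0.08 to 0.25 with single libraries left out. In B64, Cgas was 0.10 with the block, 0.02 with both limma fits and up to 0.07 without parental A, and Tmem173 was -0.06 with the block. Tbk1 in B64 against B04 was -0.05 with the offset and -0.08 and -0.09 with limma. The cause was not tested.

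Over all genes, calls for B04, for B64 and for B64 against B04 were 3181, 2157 and 3118. They became 1596, 340 and 1625 with the fragment-length block, 1966, 1258 and 2054 with limma on log2(TPM + 1), 1968, 1244 and 2034 with log2(TPM + 0.1), and 1133 and 1289 for B04 in long-fragment libraries and B64 against B04 in short-fragment libraries. Without any 1 library of the lines compared they fell to between 1755 (without B04 B) and 2019 for B04, 988 (without B64 A) and 1284 for B64, and 1696 (without B64 A) and 1961 for B64 against B04. The share of calls that were higher moved from 46.4% to 67.7% for B04 with limma on log2(TPM + 1), and from 54.3% to 68.8% for B64 with that fit and with the fragment-length block. As the replicate letters come without a stated reason, pairing was checked: deviations of same-letter libraries correlated at 0.11, 0.01 and -0.05 over 11996 genes. These values do not show a pairing by letter, but 2 libraries per line cannot exclude one. The replicate block gave 2655, 1716 and 2638 calls. Among the 10 genes it ended the calls of Mavs in B04 and Tmem173 in B64 against B04 and no others.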
